A study of Mus musculus with 6 samples.

Results

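The 9 genes Rhag, Gata1, Tal1, Klf1, Nfe2, Zfpm1, Epor, Alas2 and Slc4a1, all known from red cell development, were followed in Ba/F3-N cells given N-arachidonoyl dopamine (NADA). They were measured by 12 of the 45101 probe sets of an Affymetrix mouse array (Mouse Genome 430 2.0), namely every probe set that the platform annotation pairs with 1 of these genes and with no other. A probe set is a group of short probes against a transcript. Rhag was chosen by its measured rise in these same samples, and the other 8 genes were put beside it by name to ask whether it rises alone. The difference of Rhag between the groups is therefore a description and was not tested, and the tests of the other genes are not independent support, since they were also named with results of these data known.

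Ba/F3-N is a mouse line of bone marrow origin that carries an introduced oncogenic NRAS-G12D, and NADA joins arachidonic acid to dopamine and occurs naturally in nervous tissue. The NADA group was 3 samples of these cells given 1 µM NADA for 12 hours, and the vehicle group was 3 samples of the same cells given an equal volume of vehicle for 12 hours. Both groups carry NRAS-G12D, and the labels say neither whether the line is 1 clone nor whether samples of a group came from separate cultures, so p-values measure only the spread between these samples, which may be technical. The deposited values are linear intensities with no detection calls, 1 array per sample, and the number of arrays limits the precision.

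Red cell development is directed by a small set of nuclear proteins. GATA1, a zinc finger factor, binds DNA together with its cofactor FOG1 (encoded by Zfpm1) and in complexes with the helix-loop-helix factor TAL1. KLF1 binds CACCC boxes of globin and membrane protein genes, and the erythropoietin receptor gives survival signals through JAK2 and STAT5. Gata1, Tal1, Zfpm1 and Nfe2 are also used by megakaryocytes, and Gata1 and Tal1 by mast cells, so these genes alone do not define a red cell.

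Rhag encodes the Rh-associated glycoprotein, a membrane protein that carries ammonium and is needed to bring the Rh proteins to the red cell surface. Its only probe set read intensities of 182, 161 and 159.9 in NADA cells, against 12.9, 12.9 and 13.4 in vehicle cells. Every NADA value was over 10 times every vehicle value. The mean was 168 ± 12.7 in NADA and 13.1 ± 0.31 in vehicle (SD, n = 3 each), a log2 difference of 3.68 ± 0.08 (standard error of the fit) or 12.8-fold. This was the 5th highest difference among the 45037 probe sets that are not controls. In NADA 75.7% of probe sets were dimmer than that of Rhag, and in vehicle only 24.5% were. With so low a vehicle signal the size of the difference depends on how low values are treated. It was 2.15 with 32 added to each intensity before log2, and 1.74 with intensities under 50 set to 50.

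The RefSeq promoter windows of 3 of the genes that were higher in NADA are shown because each holds 1 match to the GATA motif, the letters that GATA1 and its relatives bind. Each window runs from 250 bases before to 50 bases after an annotated start on GRCm38.p6, and the capitals mark the match, here on the reverse strand. They lie at chr17:40810899-40811198 on the plus strand for Rhag, chr8:84901732-84902031 on the plus strand for Klf1 and chr9:21963527-21963826 on the minus strand for Epor.
Rhag: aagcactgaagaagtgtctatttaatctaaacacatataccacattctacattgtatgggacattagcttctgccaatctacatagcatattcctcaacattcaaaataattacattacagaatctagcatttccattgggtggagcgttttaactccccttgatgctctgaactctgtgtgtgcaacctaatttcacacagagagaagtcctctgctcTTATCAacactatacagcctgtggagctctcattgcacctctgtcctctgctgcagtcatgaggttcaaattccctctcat
Klf1: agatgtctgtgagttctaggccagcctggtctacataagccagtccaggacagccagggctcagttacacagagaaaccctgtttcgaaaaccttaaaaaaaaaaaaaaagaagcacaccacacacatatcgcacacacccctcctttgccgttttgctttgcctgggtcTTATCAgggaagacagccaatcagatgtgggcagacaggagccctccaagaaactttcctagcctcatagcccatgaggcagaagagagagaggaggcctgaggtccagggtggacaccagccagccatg
Epor: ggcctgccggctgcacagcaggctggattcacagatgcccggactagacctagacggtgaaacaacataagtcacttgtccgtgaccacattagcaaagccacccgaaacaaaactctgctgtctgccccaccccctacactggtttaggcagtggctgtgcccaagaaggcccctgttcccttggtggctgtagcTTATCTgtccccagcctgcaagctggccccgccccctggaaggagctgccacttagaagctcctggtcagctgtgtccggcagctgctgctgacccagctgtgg

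The motif was searched on both strands as A or T, then GATA, then A or G. It begins 31 bases before the start site for Rhag, 80 bases before it for Klf1 and 54 bases before it for Epor, counted on the gene's strand. Of the 9 genes 7 matched the table, with 8 windows, and the motif stood also in that of Alas2 and in 1 of the 2 windows of Tal1, but not in those of Gata1 and Zfpm1. Among all 32851 windows of this length 29.8% hold it. The CACCC box, searched as CCNCNCCC, stood in the windows of Gata1, Zfpm1, Epor and Alas2 and in 1 of Tal1, against 49.5% of all windows. The E-box CAGNTG stood in those of Klf1 and Epor and in 1 of Tal1, against 51.4%. The interferon-stimulated response element, searched as GAAA, any 2 bases and GAAA, was in 0 of the 8 windows, against 3.44% of all. The windows of Rhag, Klf1 and Epor differ in the other motifs: that of Rhag holds neither a CACCC box nor an E-box as searched.

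Rhag was not alone in being higher. NADA was compared with vehicle by limma over all 45037 probe sets, and a call needed an adjusted p (Benjamini-Hochberg) below 0.05. Of the 11 probe sets of the other 8 genes 5 were called higher in NADA (Gata1, Tal1, Klf1, Nfe2 and Epor, 1 probe set each), against 20% of all probe sets. Of these 5, Gata1, Klf1 and Nfe2 were still called higher when each array was scaled to bacterial poly-A RNAs. These RNAs are spiked into the samples before labelling. With that scaling 1578 of all 45037 probe sets were called higher. As deposited, the 2 probe sets of Zfpm1 were called lower, against 19.8% of all. The 4 of Alas2 and Slc4a1 were not called. Of the 11, 7 lay above the median probe set of the array (a mean intensity of 39.1) in both groups. All 7 of these were called, where 34.5% of the probe sets above that limit were called higher and 36.3% lower. Rhag passed that limit only through its NADA values. The median log2 difference was 0.29 over these 11 probe sets and 0.02 over all probe sets.

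**Figure D1:**
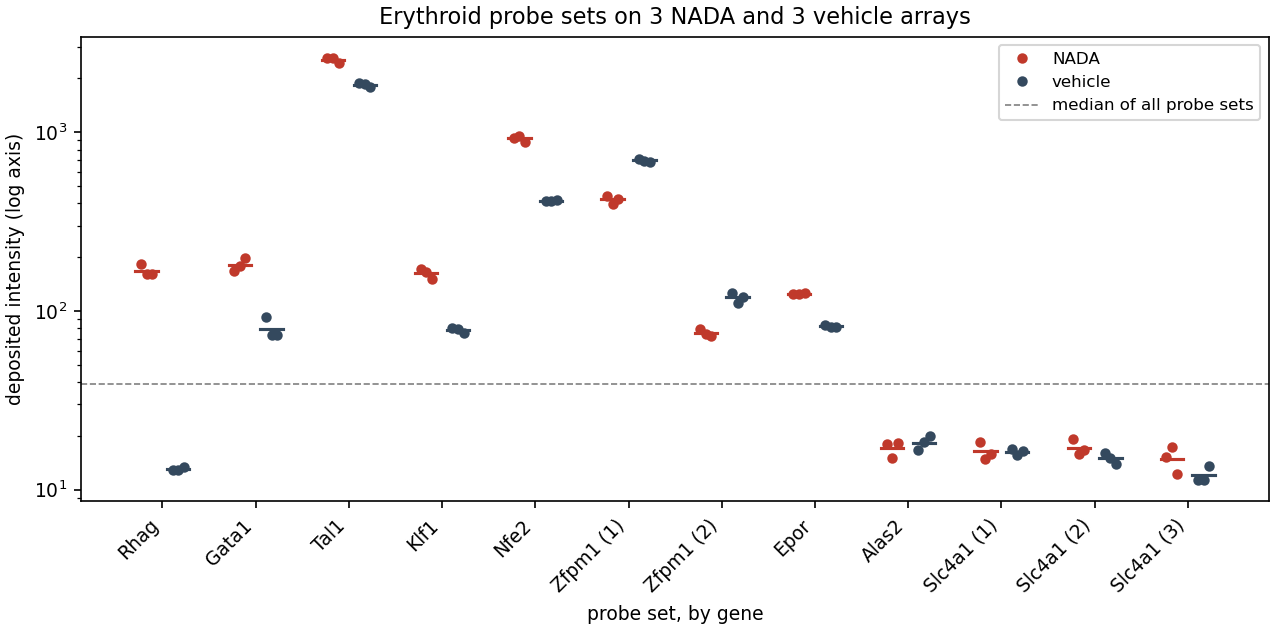
Deposited intensity (log axis) of the 12 probe sets of the 9 genes, each point 1 array, NADA left and vehicle right, with a bar at the group mean and a dashed line at the median of all probe sets (39.1). Rhag lies below the line in vehicle and above it in NADA, Gata1, Tal1, Klf1, Nfe2 and Epor are higher in NADA as deposited (poly-A scaling turns Tal1 to -0.11), both probe sets of Zfpm1 are lower, and those of Alas2 and Slc4a1 lie below the line in both groups.

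Among the nuclear factors, Gata1 read 167, 177 and 198 in NADA and 92.0, 73.0 and 73.3 in vehicle. The groups did not overlap, and 1 of the 3 vehicle samples stood above the other two (SD 10.9 in vehicle). The log2 difference was 1.19 ± 0.09, or 2.28-fold (limma, adjusted p = 1.80e-08), and 1.5% of all probe sets had a higher one.

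Nfe2, the gene of the large subunit of NF-E2, a factor of globin and platelet gene control, read 929, 955 and 886 in NADA and 410.6, 411 and 418 in vehicle. Arrays of a group lay close together, and the log2 difference was 1.16 ± 0.04 or 2.23-fold (adjusted p = 3.54e-12). Klf1 read 171, 165 and 152 in NADA and 80.5, 79.5 and 75.7 in vehicle, again with no overlap. Its log2 difference was 1.05 ± 0.07 or 2.07-fold (adjusted p = 2.57e-09). The 95% intervals of these 3 differences overlapped: 1.00 to 1.39 for Gata1, 1.07 to 1.25 for Nfe2 and 0.90 to 1.19 for Klf1.

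Tal1 was the brightest of the 12 probe sets, at 2607, 2598 and 2436 in NADA and 1875, 1858 and 1791 in vehicle. Its log2 difference was smaller, 0.47 ± 0.04 or 1.38-fold (adjusted p = 1.55e-08), and it turned to -0.11 with poly-A scaling.

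Zfpm1, the cofactor gene, went the other way. Its brighter probe set read 442, 397 and 424 in NADA and 709, 694 and 684 in vehicle. Its dimmer one read 78.9, 74.5 and 72.3 in NADA and 126, 111 and 120.0 in vehicle. Neither overlapped, and the log2 differences were -0.73 ± 0.05 (adjusted p = 2.86e-09) and -0.66 ± 0.07 (adjusted p = 1.17e-06), so that the 2 probe sets of the gene gave nearly the same change. The sign held with poly-A scaling as well.

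The receptor gene Epor read 124, 125 and 126 in NADA and 83.6, 81.8 and 81.5 in vehicle. Arrays of a group differed little and the groups did not overlap. The log2 difference was 0.60 ± 0.06 or 1.52-fold (adjusted p = 7.44e-07), and it was 0.02 and no longer called after poly-A scaling (adjusted p = 0.867).

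Alas2 and Slc4a1 were dim in both groups. Alas2, which encodes the erythroid enzyme that starts haem synthesis, read 17.9, 15.0 and 18.2 in NADA and 16.6, 18.5 and 19.8 in vehicle. The groups overlapped and the log2 difference was -0.11, with a 95% interval of -0.34 to 0.13 (adjusted p = 0.517). The 3 probe sets of Slc4a1, the chloride and bicarbonate exchanger of the red cell membrane, lay between 12.2 and 19.1 in NADA and between 11.3 and 16.8 in vehicle. They gave log2 differences of 0.00, 0.19 and 0.29 (adjusted p = 0.994, 0.189 and 0.0893), and the last belongs to a type x probe set, which can bind several transcripts. With no detection calls and signals under the median probe set, these values cannot show that the transcripts are absent.

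**Figure D2:**
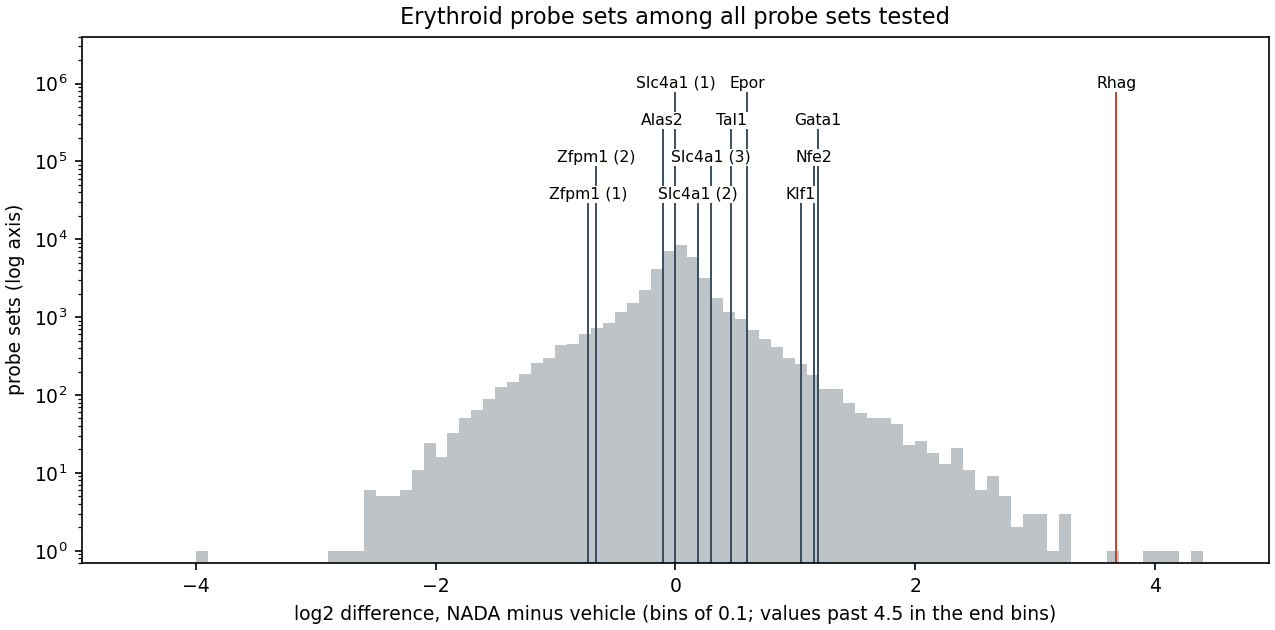
Number of probe sets (log axis) by log2 difference, NADA minus vehicle, in bins of 0.1, for all 45037 probe sets, with lines at the 12 of the erythroid genes. Rhag stands at 3.68, Gata1, Nfe2 and Klf1 between 1.05 and 1.19, and the lines of Zfpm1 at -0.73 and -0.66.

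Control probe sets differed between the groups as well. The mean log2 intensity of 24 probe sets for bacterial poly-A RNAs was 8.72 ± 0.21 in NADA and 8.14 ± 0.01 in vehicle (SD, n = 3 each). The log2 ratio of the 3' to the 5' probe set of Actb was 1.06 ± 0.05 in NADA and 0.67 ± 0.04 in vehicle. For Gapdh the groups lay closer, at -0.07 ± 0.06 in NADA and -0.22 ± 0.03 in vehicle. Scaling to the poly-A RNAs lowers the mean difference of every probe set by 0.58, so that the median over all of them becomes -0.56. Relative to that median the order of the genes is the same. After it Rhag stood at 3.10, Gata1 at 0.61, Nfe2 at 0.58 and Klf1 at 0.47, all still higher in NADA, whereas Alas2 was called lower at -0.68 and the 2 brighter probe sets of Slc4a1 at -0.58 and -0.39. The part of these control differences in the results was not tested.

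**Figure D3:**
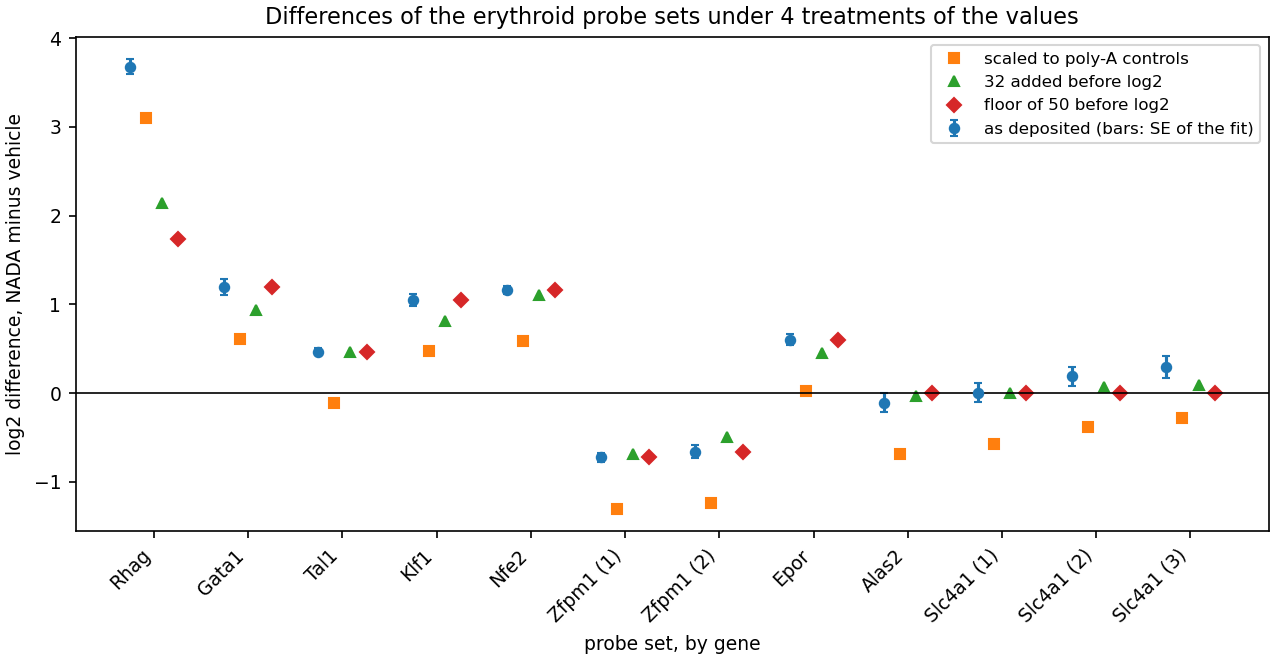
Log2 difference, NADA minus vehicle, of the 12 probe sets as deposited (circles, with the standard error of the fit), scaled to the poly-A controls (squares), with 32 added before log2 (triangles) and with a floor of 50 (diamonds). Rhag runs from 3.68 to 1.74 over these settings and stays the highest, while Tal1 falls below 0 with poly-A scaling (-0.11) and Epor reaches 0.02.

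The pattern of Rhag over the 6 arrays was also set against all named genes. The 5 genes with the smallest Euclidean distance to Rhag, taken over the 6 deviations from each probe set's own mean log2 value, were Pik3ip1 (0.60), Ifit1 (0.62), Oas2 (0.64), Aox1 (0.65) and Isg20 (0.65). Ifit1, Oas2 and Isg20 are interferon-induced antiviral genes, Pik3ip1 encodes an inhibitor of PI3K and Aox1 an aldehyde oxidase. This distance is set mostly by the size of the difference, which chose Rhag, so the likeness is a description.

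Of the 3 nearest named genes on each side of Rhag with a probe set of their own, 0 of 6 were called higher and 2 lower, against 22.1% and 22% of all genes, so that with so few genes nothing is read from these counts. On 1 side these were Crisp2, Crisp3 and Pgk2, all with mean intensities of 5.47 or less in NADA and 5.40 or less in vehicle and none called. On the other side 9130008F23Rik was not called (62.3 in NADA and 59.9 in vehicle). Cenpq, a centromere protein gene, was lower in NADA (log2 difference -0.34, adjusted p = 1.12e-06), and so was the brightest probe set of the methylmalonyl-CoA mutase gene Mmut (-0.14, adjusted p = 0.0141), whose other 2 probe sets were not called.

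Lists of 102 related genes, each read by its brightest probe set, show what else of red cell biology was measured. Over all 6 lists 36 genes were called higher and 24 lower in NADA, or 35.3% and 23.5%. Of all 18193 genes with a probe set of their own 22.1% were called higher and 22% lower. The related genes were mostly bright: 77 of the 102 lay above the median probe set in NADA and 78 in vehicle. Among all probe sets above that limit 34.5% were called higher and 36.3% lower. The median log2 difference of the related genes was 0.10, against 0.02 over all genes. With poly-A scaling 9 were called higher and 77 lower, where 4.2% of all genes were higher and 82.2% lower. Of the 63 related genes with several probe sets, 0 held calls in opposite directions. By the rule for naming, a gene had to be called, change at least 2-fold and have groups that do not overlap, which 8 genes did (Alad, Gfi1b, Id1, Sh2b3, Foxo3, Itgb3, Ppbp and Selp). Other genes of these lists are named after their values were seen.

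Of 21 genes of the red cell membrane and Rh family 4 were called higher and 2 lower, with a median of 0.02. These are 19% and 9.52%, against 22.1% and 22% of all genes. None of the 3 relatives of Rhag was called as deposited. Rhd, the Rh protein that RHAG carries to the surface, had a mean intensity of 164 in NADA and 168 in vehicle, with an adjusted p of 0.7. The 95% interval of its log2 difference was -0.16 to 0.09. Rhbg had 46.3 in NADA and 44.1 in vehicle, and Rhcg 24.1 in NADA and 23.9 in vehicle. With poly-A scaling Rhd, Rhbg and Rhcg were called lower at -0.61, -0.50 and -0.57, where the median over all probe sets was -0.56. Cd47, a surface protein that can sit in the Rh complex, was higher at 0.52 (6605 in NADA and 4596 in vehicle, at an adjusted p = 3.01e-10). Ank1, the ankyrin that ties membrane proteins to spectrin, was higher at 0.30 in its brightest probe set. Its other probe sets were not called (0.12, -0.03 and 0.21). With poly-A scaling the value of Cd47 fell to -0.06 and that of the brightest Ank1 probe set to -0.28. Icam4, another partner of the Rh complex, was lower at -0.83 (37.7 in NADA and 67.0 in vehicle, adjusted p = 6.83e-07).

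Of 19 haem synthesis and globin genes 7 were called higher and 5 lower, with a median of 0.10. These are 36.8% and 26.3%, against 22.1% and 22% of all genes, and 14 of the 19 lay above the median probe set. Alad, the enzyme of the step after Alas2, had the largest change of the list (mean intensity 181 in NADA and 465 in vehicle, log2 difference -1.36 ± 0.05, adjusted p = 4.04e-12), although its dimmer probe set was not called (-0.06). The transferrin receptor gene Tfrc, the route of iron into red cell precursors, was lower at -0.99 (1634 in NADA and 3234 in vehicle), in all 3 of its probe sets. Of the later enzymes, Urod, Ppox, Fech and Cpox were higher by 0.62, 0.60, 0.37 and 0.23, whereas Uros was lower at -0.16 (adjusted p = 0.0438). Dimmer probe sets of Ppox (0.13 and -0.10), Cpox (0.15), Fech (0.01) and Uros (-0.04) were not called. Others of Urod (0.40), Fech (0.29 and 0.24) and Cpox (0.32) were called higher. With poly-A scaling 0 genes of the list were called higher and 14 lower, where 4.2% of all genes were higher and 82.2% lower. Among the globin genes Hba-a1 and Hbb-b2 were dim, with means of 17.7 and 18.8 in NADA and of 16.5 and 19.3 in vehicle. Hba-a2 lay above the median probe set and was not called (75.3 in NADA and 84.9 in vehicle). The embryonic Hbb-bh1, dim in both groups, was called higher in its brightest probe set (23.2 in NADA and 18.5 in vehicle). Its other probe sets were not called (-0.03 and 0.26), and the brightest stood at -0.25 with poly-A scaling. Probe sets shared by several globin genes were not used.

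Of 19 partners and antagonists of GATA1 and TAL1 9 were called higher and 7 lower, or 47.4% and 36.8%, with a median of 0.04. All 19 lay above the median probe set in both groups, where 34.5% of probe sets were called higher and 36.3% lower. Gfi1b, a repressor needed in red cell and platelet precursors, was higher at 1.07 ± 0.05 (622 in NADA and 296 in vehicle, with an adjusted p = 1.36e-10), and at 0.50 after poly-A scaling. Id1, which blocks helix-loop-helix factors, was lower at -1.37 ± 0.08 (74.4 in NADA and 192 in vehicle, adjusted p = 3.72e-10). The genes whose proteins can join TAL1 in complexes, read together with the helix-loop-helix gene Lyl1, did not move one way. The helix-loop-helix genes Tcf3 (-0.80) and Lyl1 (-0.65), the bridging factor gene Lmo2 (-0.44) and Ldb1 (-0.39) were lower. Tcf12, another helix-loop-helix gene, was higher at 0.30 (1570 in NADA and 1279 in vehicle) but at -0.28 with poly-A scaling. The brightest probe set of the corepressor gene Cbfa2t3 was not called (-0.10). A dimmer one was called lower at -0.20 (adjusted p = 0.00143), and its remaining probe sets were not called. Gata2, which precedes Gata1 in blood development, was lower at -0.21 (1763 in NADA and 2041 in vehicle, with an adjusted p = 3.36e-05), and Spi1, whose protein opposes GATA1, was higher at 0.27 but turned to -0.31 with poly-A scaling. Runx1 was called higher in all 6 of its probe sets, from 0.22 in the brightest to 1.33. With poly-A scaling 4 of the 6 stayed higher and called, from 0.42 to 0.75, whereas the brightest became -0.36 (adjusted p = 0.0101).

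**Figure D4:**
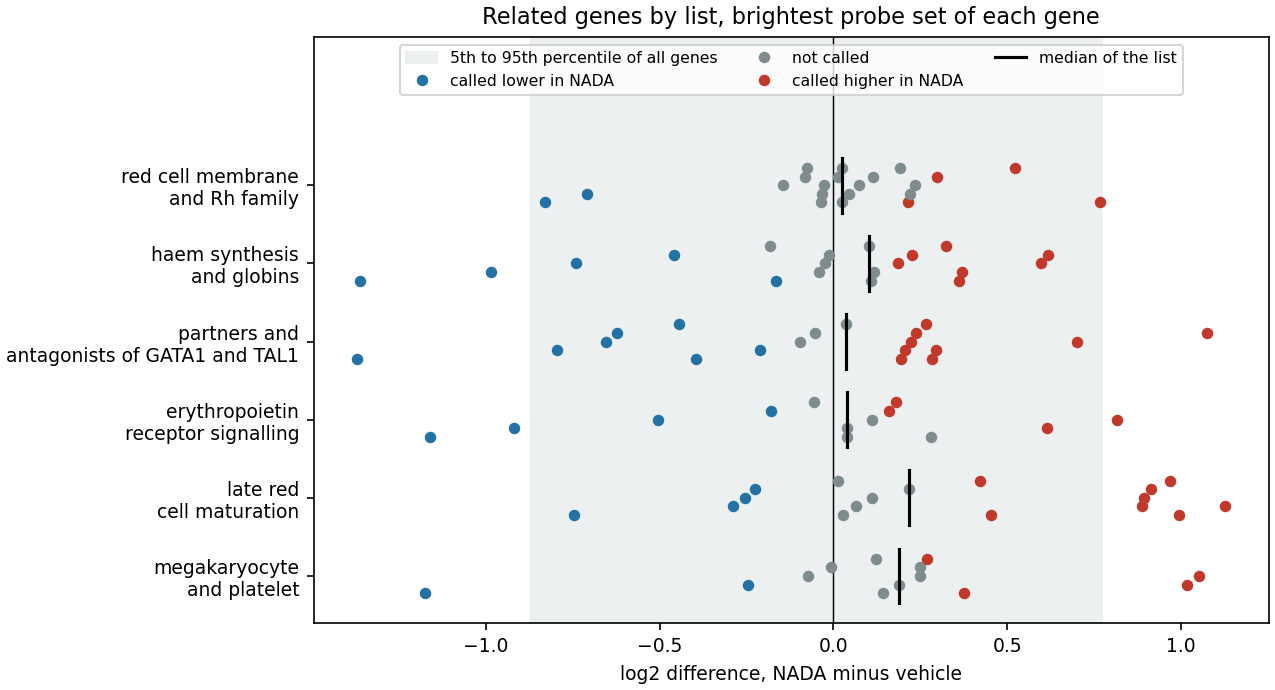
Log2 difference, NADA minus vehicle, of the 102 related genes in 6 lists, each point 1 gene by its brightest probe set and coloured by its call. The black bars are list medians and the grey band spans the 5th to the 95th percentile of all genes (-0.87 to 0.77). List medians lie between 0.02 and 0.22, and each list holds genes on both sides of 0.

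Of 13 genes of erythropoietin receptor signalling 4 were called higher and 4 lower, with a median of 0.04. Each is 30.8%, against 22.1% and 22% of all genes, and 10 of the 13 lay above the median probe set. Jak2, the kinase bound to the receptor, was higher at 0.82 (901 in NADA and 512 in vehicle, adjusted p = 8.28e-11), but at 0.24 and not called with poly-A scaling (adjusted p = 0.0565). Sh2b3, an adaptor that restrains JAK2, was lower at -1.16 ± 0.05 (230.0 in NADA and 513 in vehicle, adjusted p = 1.83e-11), in both of its probe sets. Bcl2l1, a survival gene that the receptor drives in red cell precursors, was lower at -0.92 in its brightest probe set (203 in NADA and 381 in vehicle). Dimmer ones were called lower at -0.71 and at -0.30, the latter with overlapping groups (adjusted p = 0.0497). The dimmest was not called (0.20). Stat5a was not called and Stat5b was higher by 0.18, which turned negative with poly-A scaling.

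Of 17 genes of late red cell maturation 8 were called higher and 4 lower, with a median of 0.22. These are 47.1% and 23.5%, against 22.1% and 22% of all genes, and 13 of the 17 lay above the median probe set. Foxo3 was higher at 1.13 ± 0.05 (969 in NADA and 444 in vehicle, adjusted p = 1.80e-11), catalase (Cat) at 0.99, and Ncoa4, the receptor that delivers ferritin for breakdown, at 0.97. These 3 are at work in many cell types. With poly-A scaling 6 genes of the list were still called higher and 9 were lower, against 4.2% and 82.2% of all genes. Hemgn, a nuclear protein gene that is more confined to blood cells, was lower at -0.75 (250 in NADA and 419 in vehicle, with an adjusted p = 3.10e-09), and the carbonic anhydrase genes Car1 and Car2 were dim and not called.

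Markers were used to check which cells the RNA came from, and in bulk RNA fewer cells of a type and less RNA per cell cannot be told apart. Of 3 erythroblast markers with a probe set of their own (Hba-a1, Car1 and Ermap) 0 lay above the median probe set in either group, and their summed intensity ran from 57.9 to 68.5 in NADA and from 59.9 to 64.5 in vehicle. Hba-a2, which is not on the marker list, lay above it in both groups. Of 5 megakaryocyte markers all lay above it in both groups, with sums from 744 to 818 in NADA and from 830.2 to 838 in vehicle. In the megakaryocyte and platelet list of 13 genes 4 were called higher and 2 lower, or 30.8% and 15.4%, against 22.1% and 22% of all genes. Itgb3 (1.05) and Ppbp (1.02) were the highest, although the dimmer probe set of Itgb3 was not called (0.19). Selp was the lowest (-1.18, and lower still in its other 2 probe sets), and Pf4 was not called.

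The origin of the line was not marked equally by all its genes. Of 8 pro-B markers only Cd79b and Igll1 lay above the median probe set, while Pax5, Ebf1, Rag1 and Vpreb1 were dim in both groups. Of 6 markers of interleukin-3-dependent progenitors 4 did, and Kit and Cd34 were dim. The summed level of this list was 13489 to 13580 in NADA and 5736 to 5969 in vehicle, through the leukocyte surface gene Ptprc (6449 in NADA and 4034 in vehicle) and the receptor chains Csf2rb (3337 in NADA and 990.0 in vehicle) and Csf2rb2 (3574 in NADA and 703 in vehicle). The similar sequences of the 2 chains may share signal. Mast cell and basophil markers lay above the limit for 2 of 9 genes in each group, with sums of 402 to 422 in NADA and 442 to 459 in vehicle. Macrophage and granulocyte markers did so for 2 of 5 genes, with sums of 386 to 402 in NADA and 197 to 224 in vehicle, through Adgre1 (280 in NADA and 109 in vehicle). The part of these markers in the results for the erythroid genes was not tested.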

How the data were processed

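Per the labels' protocols, RNA from 6 samples was biotin-labelled with an amplification kit and hybridised to 1 array each. The authors deposited 1 linear intensity per probe set, and the submitters' processing notes list MAS5 and RMA without saying how each was used. Array medians were nearly equal, so the values were taken as normalized by the authors and used after log2. The 64 control probe sets were left out of the test, and 34945 of the other 45037 had 1 gene in the platform annotation. NADA was compared with vehicle over all 45037 by limma 3.58.1 (lmFit, eBayes with an intensity trend, two-sided, no other term) in R 4.3.3, with Benjamini-Hochberg adjustment and no dim filter. The ± of a difference is the standard error of this fit. The steps were tested on simulated data. The members, lists and tests were chosen with earlier results of these data known. Named were all members, up to 4 called, at least 2-fold, non-overlapping genes per list and direction, the 5 patterns nearest to Rhag and 3 flanking genes per side. Alternatives were other scalings, low-value treatments, filters, fits and thresholds, and leaving out each array. Plots used matplotlib 3.10.9.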

Additional observations from a re-analysis of the deposited data

How the results depend on the processing

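Of the results tried, scaling to the poly-A RNAs changed most. Under it the log2 difference of Rhag was 3.10, and 3 erythroid probe sets other than Rhag were called higher and 5 lower. Of all 45037 probe sets 1578 were then called higher and 37097 lower. Of the related genes 9 were called higher and 77 lower, where 4.2% of all genes were higher and 82.2% lower. Tal1 turned to -0.11 and 2 probe sets of Slc4a1 to -0.58 and -0.39. Every difference shifts by 0.58 under this scaling. Each array is scaled by its own poly-A mean, which varied more within NADA (SD 0.21) than within vehicle (SD 0.01). The calls therefore depend on that added spread as well as on the shift. Rhag was 2.15 with 32 added before log2 and 1.74 with a floor of 50. With a minimum of 1.5-fold 15 related genes were called higher and 13 lower, against 3150 and 3692 of all 45037 probe sets. Leaving out each array in turn gave 3.62 to 3.71 for Rhag, 5 to 6 erythroid probe sets higher and 2 lower each time, and 32 to 36 related genes higher and 22 to 24 lower. The sixth was the third probe set of Slc4a1, called at 0.43 without NADA replicate 3 and at 0.38 without vehicle replicate 3, and at 0.36 with array weights. Same-numbered samples did not deviate together (correlations of 0.08, -0.07 and -0.02), so the numbers were not taken as pairs. With the replicate block the counts were 5 higher and 2 lower, 36 and 24 for related genes, and 9005 higher and 8947 lower over all probe sets, against 9024 and 8929 without it. Quantile normalization, median centring, the dim filter, single-gene probe sets alone, no intensity trend and an adjusted p under 0.01 kept these counts within 1.5 times. Signal well under the median probe set limits what can be said of Alas2, Slc4a1 and the vehicle level of Rhag.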
